A study of Mus musculus with 12 samples.

Results

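Cluster 1 of the 28W kidney was the largest of 12 clusters that the authors drew among sorted PD-1+CD44+CD8+ T cells of diseased kidney. Relative to all transcripts of a cluster, and not per cell, it carried the highest level of the granzyme gene *Gzmb*. Its members were every barcode that the deposited cluster table places in cluster 1, which were 900 of the 7135 kidney cells (12.6%, exact binomial 95% limits 11.9 to 13.4) and of 20510 cells in the series. Gene levels came from the mean counts of that cluster, expressed as unique molecular identifiers (UMIs, 1 per captured transcript) per 1000000 UMIs of the cluster (counts per 1000000, CPM).

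The study sorted these cells from female NZB/W F1 mice, hybrids of the NZB and NZW strains in which lupus nephritis arises as they age. The groups were spleen at 12 weeks of age (12W spleen, before disease), 28-week spleen (28W spleen) and 28-week kidney (28W kidney, with nephritis), with no treatment and no engineered allele named for them. Each group held 4 samples whose titles differ only in a numbered suffix, and they share 1 set of tables. What the suffix stands for is not stated. Each group was therefore 1 library, the number of mice behind it is not stated, and no difference has a replicate check. Kidney was digested with collagenase I and cells were collected over Percoll, a step not described for spleen. The deposited tables give cluster means only, so the spread between the cells of a cluster was not measured here.

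CD8+ cytotoxic T cells kill through granules that hold perforin, which opens the target membrane, and granzymes, proteases that then enter and trigger cell death. PD-1, encoded by *Pdcd1*, is an inhibitory receptor that antigen-stimulated T cells display. As CD8+ T cells become effector cells they lose transcription factors and receptors of naive and memory cells, such as *Tcf7*, *Il7r* and *Klf2*, and gain granule genes and receptors for inflamed tissue.

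Depth favoured cluster 1. It held 5108976 UMIs, or 5677 per cell, against 1200 to 11404 per cell in the other kidney clusters and 3982 over all 6235 other kidney cells. Only cluster 11, rich in transcripts of mitosis, had more per cell. Mitochondrial transcripts made up 0.515% of UMIs in cluster 1 and 0.558% to 10.8% in the other kidney clusters, with the top value in cluster 2. Intervals below are exact 95% Poisson limits on UMIs or exact binomial limits on shares, and they cover only counting error. Where a gene had 0 UMIs, the limit that 3 counts set was 0.587 CPM in cluster 1. Of its 900 barcodes, 8 also occur in 28W spleen and 5 in 12W spleen, among 66 and 56 that the whole kidney library shares with them.

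The label of the cluster was set beside the 4 markers that name it. *Gzmb* (granzyme B, GRCm38 chromosome 14, 56258838 to 56262260, minus strand) was at 696 CPM (673 to 719) in cluster 1, the highest of the 12 kidney clusters. Cluster 11 followed at 603 CPM (579 to 627), then cluster 6 at 281, cluster 3 at 261 and the others at 6.94 to 201 CPM. *Nkg7* (a granule membrane protein, chromosome 7, 43437073 to 43438249) was also highest in cluster 1, at 2841 CPM against 2722 in cluster 6 and 2587 in cluster 3. The limits of clusters 1 and 6 overlapped for that gene. *Gzmk* (granzyme K, chromosome 13, 113171608 to 113225908) was at 873 CPM (848 to 899) in cluster 1, with limits that overlapped those of cluster 6 at 902 and cluster 11 at 869. Cluster 3 was below it at 815 (786 to 845). *Ccl5* (a chemokine that draws T cells and monocytes, chromosome 11, 83525778 to 83530518) was at 10631 CPM, below 15923 in cluster 6 and 11172 in cluster 3. All 4 markers were among the 3 highest levels, a place that 31.5% of 6828 genes with at least 10 CPM in cluster 1 held. The markers also name the cluster, so their levels describe the label and do not test it. *Nkg7*, *Gzmk* and *Ccl5* were as high or nearly so in cluster 6.

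**Figure D1:**
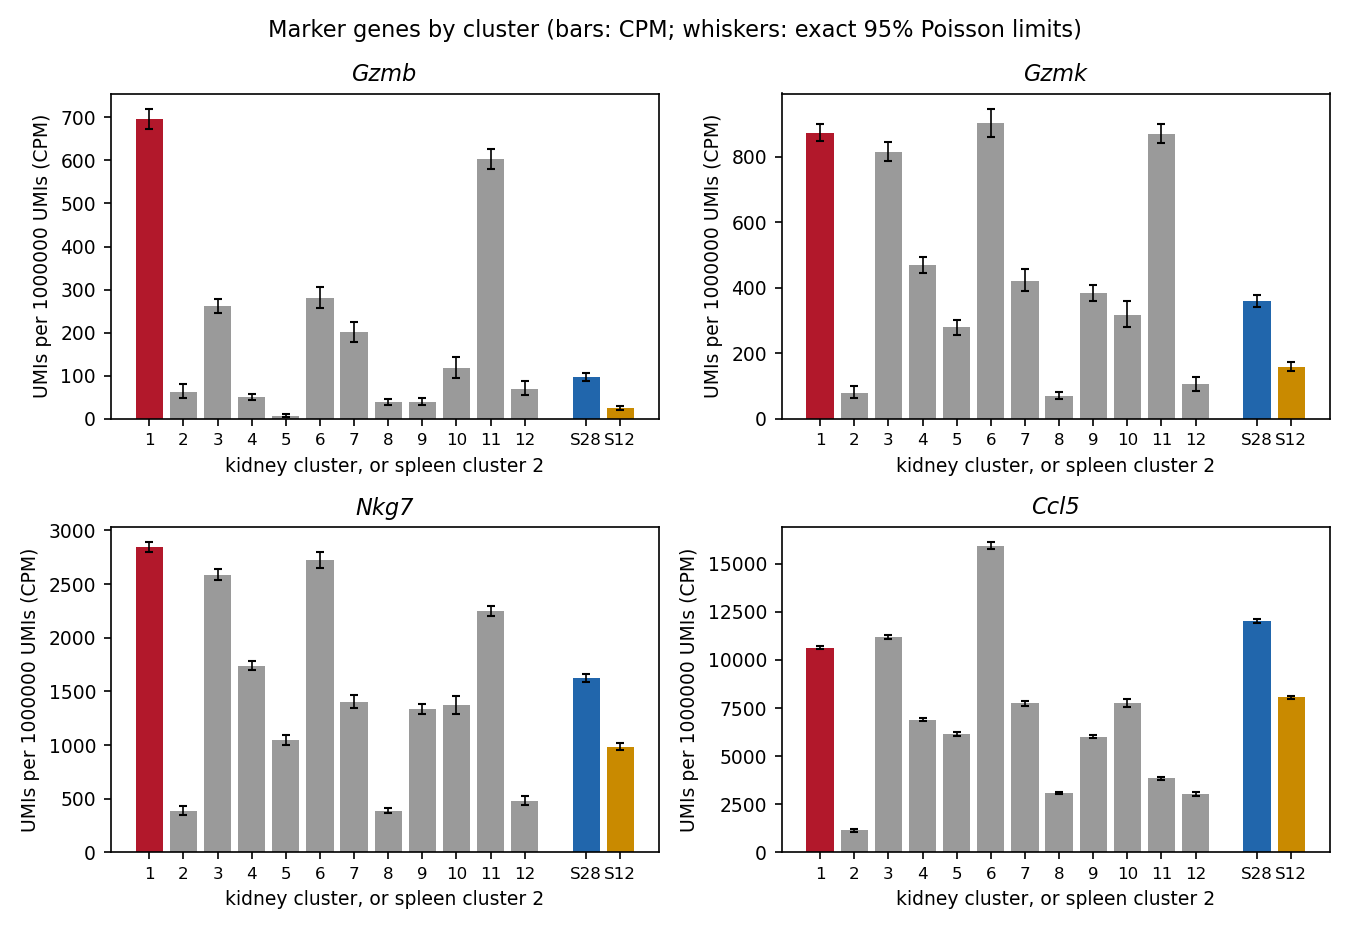
CPM of the 4 marker genes in each of the 12 clusters of 28W kidney (red, cluster 1; grey, clusters 2 to 12), in 28W spleen cluster 2 (blue, S28) and in 12W spleen cluster 2 (gold, S12), with exact 95% Poisson limits. *Gzmb* separates cluster 1, at 696 CPM, and cluster 11, at 603 CPM, from all other bars, while *Gzmk*, *Nkg7* and *Ccl5* are also high in clusters 3 and 6.

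The 250 bases before the *Gzmb* start are shown because this gene had the highest ratio over the other kidney cells. The sequence is from RefSeq, build GRCm38.p6, chr14:56262335-56262584, minus strand, written 5′ to 3′, and lies outside the annotated gene. Capitals mark 2 motifs that were searched on both strands, TGAGTCA, the letters bound by AP-1 factors such as Fos and Jun, and TGTGGTT, the letters bound by RUNX factors. They begin 58 and 34 bases before the start used for this window, which lies upstream of the start in the gene coordinates above.
Gzmb: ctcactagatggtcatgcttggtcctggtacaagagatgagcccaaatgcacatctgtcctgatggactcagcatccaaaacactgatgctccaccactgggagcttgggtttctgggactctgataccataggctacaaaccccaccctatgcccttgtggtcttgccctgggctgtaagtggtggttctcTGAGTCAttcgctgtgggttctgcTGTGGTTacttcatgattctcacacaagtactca

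TGAGTCA occurs in 4.46% and TGTGGTT in 4.39% of the 32817 promoter windows of that length. Among the cytotoxic granule genes, 11 of 12 matched the promoter table, with 13 windows. Of these windows 3 held TGTGGTT (*Gzma*, *Gzmb* and *Srgn*) and 1 held TGAGTCA (*Gzmb*). All 250 bases of the *Srgn* window lie inside an annotated gene. A match describes letters in a window and not binding.

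The 2 granzymes split the kidney clusters differently. Of the UMIs of *Gzmb* and *Gzmk* together, *Gzmb* made up 44.4% (43.3 to 45.5) in cluster 1 and 40.9% (39.7 to 42.2) in cluster 11. The share was 24.3% in cluster 3, 23.8% in cluster 6, 9.70% in cluster 4 and 2.43% in cluster 5. It was 21.1% (19.4 to 22.9) in 28W spleen cluster 2, 43.3% (39.6 to 47.0) in the smaller granzyme pool of 28W spleen cluster 6, and 13.3% (10.9 to 16.0) in 12W spleen cluster 2. In 12W spleen cluster 7, with 157 *Gzmb* and 9 *Gzmk* UMIs, it was 94.6%. Kidney clusters 7, 8 and 10 had shares of 32.3%, 35.1% and 27.0%, and clusters 2 and 12, with few granzyme UMIs, 44.2% and 39.8% within wide limits.

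The comparison with the other 6235 kidney cells asked which genes mark this cluster within the organ. The clusters were made from these same genes, so the values describe the cluster and test nothing. Log2 ratios used a pseudocount of 1 CPM and genes with at least 10 CPM on either side. Of 7672 such genes, 34 (0.443%) were at least 2-fold higher in cluster 1 and 515 (6.71%) at least 2-fold lower. The median ratio over all of them was -0.037. For gene lists, counts past 2-fold are of the genes that passed this filter, while medians are over every listed gene found in the table. Without clusters 7, 8 and 12, which held kidney tubule, B cell and myeloid transcripts, 18 genes (0.241%) were higher and 263 (3.52%) lower. When clusters 2 and 11 were left out as well, the counts were 103 and 108, so the balance of higher and lower genes rests on which cells are in the comparison.

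The 10 highest ratios among genes with at least 50 CPM on either side belonged to *Gzmb*, *S100a4*, *Wdr95*, *Mcm2*, *Lime1*, *Mcm3*, *S100a6*, *Cxcr6*, *Ccr2* and *Gnpda1*, from 1.81 for *Gzmb* to 1.01 for *Gnpda1*. They span a granule protease, calcium-binding S100 proteins, replication helicase subunits, a T cell adaptor (*Lime1*) and chemokine receptors. Without clusters 7, 8 and 12 only *Gzmb* (1.61) and *S100a4* (1.04) of these 10 stayed past 2-fold. *S100a4* (chromosome 3, 90603771 to 90606045) was the only gene outside the V segments with at least 50 CPM in cluster 1 and at least 1.5 times the next highest kidney cluster. It was at 1060 CPM (1032 to 1089) there, against 670 in cluster 11, 643 in cluster 3 and 114 to 610 in the others. *Lime1* was at 198 CPM against 139 in cluster 11. The 10 lowest were *Gm20730*, *Jchain*, *H2-Aa*, *Iglc2*, *Cd79a*, *Mzb1*, *Igha*, *Ighg2b*, *H2-Eb1* and *Hbb-bs*, mostly B cell, plasma cell, antigen-presenting and red cell genes, at log2 ratios of -7.94 to -6.14. Their levels in cluster 1 were 0 to 10.2 CPM.

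Many markers of other cells were at or near 0 in cluster 1, while some genes of those lists, such as *Ighm*, *Cst3* and *Eomes*, were not. *Ms4a1* and *Ighd* of B cells, *Csf1r* and *Adgre1* of macrophages and *Umod* and *Kap* of tubules had 0 UMIs. *Cd4* was at 0.587 and *Foxp3* at 0.391 CPM. The 8 tubule markers summed to 20.9 CPM, against 20.9 to 28.7 in clusters 3, 4, 5 and 9, 12841 in tubule-rich cluster 7 and 0.421 in 28W spleen cluster 2. *Gpx3* made up most of it, at 14.7 CPM. The 10 B cell markers summed to 201 CPM, of which *Ighm* gave 114, and the 10 myeloid markers to 232, of which *Cst3* gave 211. The 5 erythroid markers summed to 5.09 CPM, the 6 natural killer (NK) cell markers to 114, of which *Eomes* gave 96.7, and the 6 gamma delta T cell markers found to 32.5. Of the 5 CD4 and regulatory T cell markers, summing to 26.0 CPM, *Ctla4* gave 17.4. The sort markers were present, with *Cd8a* at 934, *Cd8b1* at 1442, *Cd44* at 71.4 and *Pdcd1* at 151 CPM.

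All 12 cytotoxic granule genes passed 10 CPM in cluster 1, and each was among the 3 highest of 12 clusters, a place that 31.5% of 6828 genes at that level held. It was the highest for 4 of them (*Gzmb*, *Nkg7*, *Ctsd* and *Serpinb9*), beside 6.06% of those genes. *Gzmb*, *Nkg7* and *Gzmk* of this list are also markers that name the cluster, so their places do not test the label. Against the other kidney cells only *Gzmb* passed 2-fold, and the median log2 ratio was 0.74. *Gzma*, another granzyme, was at 266 CPM (252 to 281) against 143 over the other kidney cells, and only cluster 11, at 345, was higher. *Prf1* (perforin) was at 126 CPM, with limits that overlapped those of cluster 3 at 138 and cluster 6 at 135. *Fasl*, a ligand that triggers death through Fas, was at 109 CPM, below 143 in cluster 6 and 132 in cluster 3. *Serpinb9*, which shields killer cells from their own granzyme B, was at 64.0 CPM, with limits that overlapped those of cluster 3 at 60.7. The summed level of the list was 7929 CPM in cluster 1, 7194 in cluster 6, 6940 in cluster 3 and 1988 to 6385 in the others.

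Of 15 chemokine and cytokine genes, 9 passed the filter and none was 2-fold higher or lower than in the other kidney cells, where 0.443% and 6.71% of all genes were. *Ifng* (interferon gamma) was at 92.4 CPM (84.2 to 101) against 83.5 over the other kidney cells and 112 in cluster 3. *Tnf* was at 57.9 CPM, with 9 of the 11 other clusters above it. *Il2*, *Il10* and *Il21* were at 0.391 to 2.74 CPM, and *Il17a* had 0 UMIs in cluster 1 against 11.3 CPM in cluster 4.

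Genes of naive and memory cells were low. Of 14 listed genes all passed the filter, 9 were at least 2-fold lower than in the other kidney cells and none was higher, with a median log2 ratio of -1.22 where 6.71% of all genes were lower. Without clusters 7, 8 and 12, 7 of the 14 were lower. The summed level of the list was 520 CPM, below each of the 11 other clusters at 582 to 3251. *Klf2* (a transcription factor that keeps T cells recirculating, chromosome 8, 72319033 to 72321656) was at 87.7 CPM (79.8 to 96.2), the lowest of the 12 clusters. Its neighbour in that order, cluster 6 at 92.6, had overlapping limits, and the highest was cluster 8 at 1309. *Il7r*, the receptor for the survival cytokine IL-7, was at 42.7 CPM against 25.9 in cluster 11, 41.9 in cluster 6, 88.1 in cluster 3, 266 in cluster 4 and 624 in cluster 5. *Tcf7*, a transcription factor of memory and stem-like T cells, was at 36.2 CPM (31.2 to 41.8) against 54.8 in cluster 6 and 84.0 in cluster 3. *Bcl2*, a survival gene, was at 26.0 CPM, and only cluster 11 was lower at 12.2.

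Immediate-early and NF-kB genes were low as well. Their products are made within minutes of stimulation, and tissue handling is also known to induce them. Of 14 genes, 10 were at least 2-fold lower than in the other kidney cells and none was higher, beside 6.71% of all genes lower, with a median log2 ratio of -1.40. Cluster 8, rich in B cell transcripts, held most of the contrast, with *Junb* at 4515 CPM against 250 in cluster 1. Without clusters 7, 8 and 12 only 3 of the 14 were 2-fold lower, beside 3.52% of all genes, and the median was -0.61. *Fosb* at 2.54, *Tnfaip3* at 32.9, *Dusp1* at 53.6 and *Fos* at 73.4 CPM were each lowest of the 12 in cluster 1, though for each of them the limits overlapped those of at least 1 other cluster, as with *Fos* in cluster 11 at 74.3. Of these, *Tnfaip3*, *Dusp1* and *Fos* had at least 10 CPM in cluster 1, where 1.87% of 6828 genes at that level held the lowest place.

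**Figure D2:**
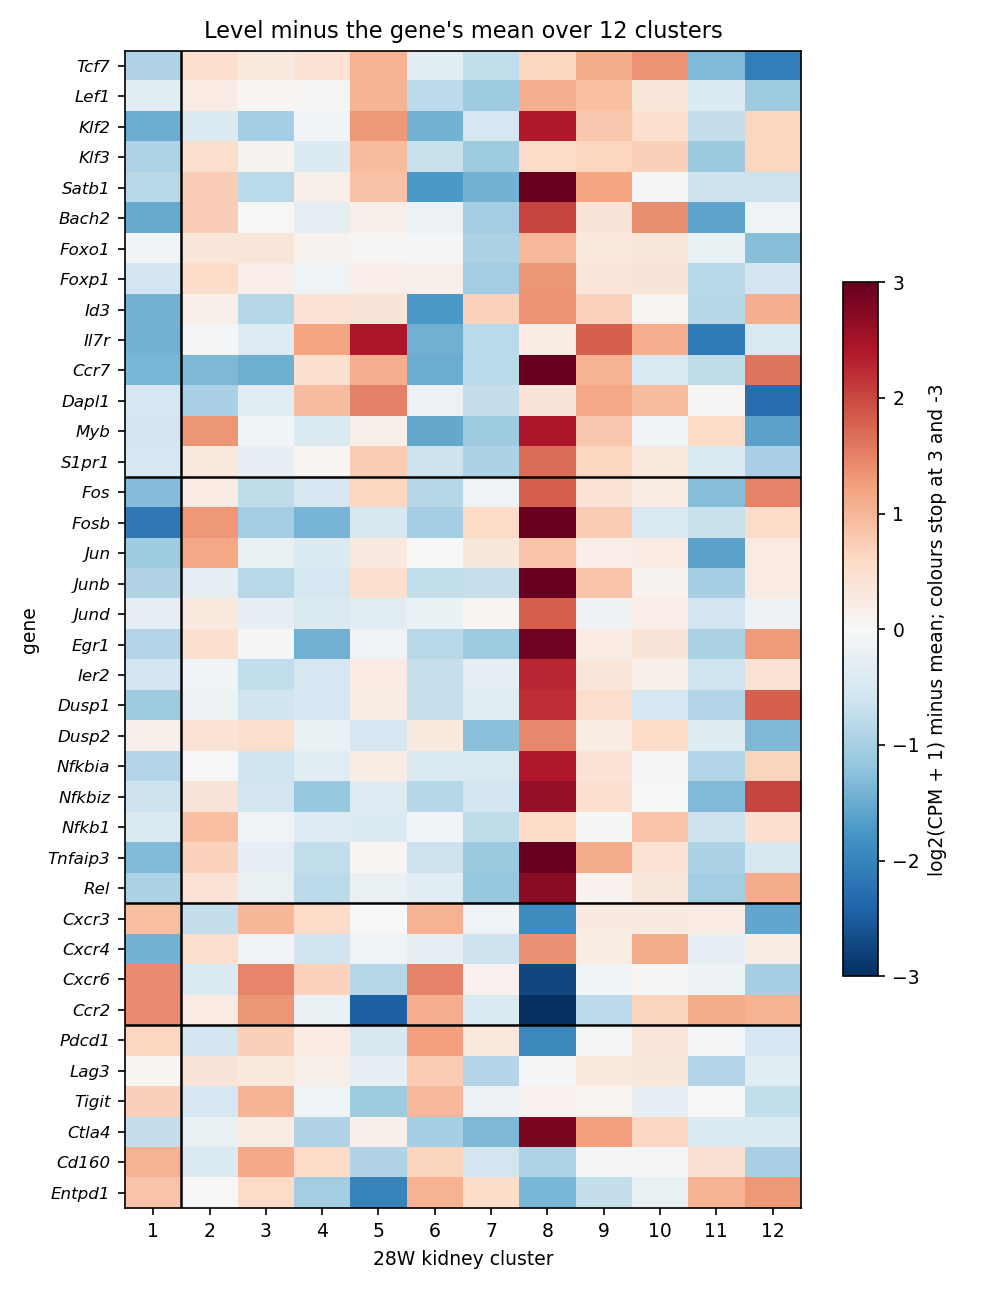
Level of each gene in the 12 clusters of 28W kidney, as log2(CPM + 1) minus the mean of that gene over the clusters, for naive and memory, immediate-early and NF-kB, chemokine receptor and inhibitory receptor genes (top to bottom, split by lines). Cluster 1, the first column, is mostly blue over the upper groups, with *Klf2* at 87.7 CPM, and red for *Cxcr6* and *Ccr2*, a pattern seen also in clusters 3 and 6.

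Receptors for inflamed tissue were high. *Cxcr6* (a receptor found on T cells settled in tissue, chromosome 9, 123806475 to 123811760) was at 826 CPM (801 to 851), with overlapping limits in cluster 6 at 870 and cluster 3 at 861, while the other clusters were at 46.0 to 504. *Ccr2* (a receptor for monocyte chemokines, chromosome 9, 124101950 to 124113557) was at 238 CPM (225 to 252), the highest of the 12, with overlapping limits in cluster 3 at 221 (206 to 237). *Cxcr4*, which holds cells in marrow and other niches, was at 9.98 CPM (7.43 to 13.1), the lowest of the 12 clusters. Over the 10 chemokine receptors 7 passed the filter, 2 were at least 2-fold higher than in the other kidney cells (*Cxcr6* and *Ccr2*) and 2 lower (*Ccr7* and *Cxcr4*). Of all genes, 0.443% were higher and 6.71% lower. Without clusters 7, 8 and 12 neither higher call held, at 0.79 for *Cxcr6* and 0.83 for *Ccr2* on the log2 scale, and the median of -0.64 turned to 0.11. Without clusters 2 and 11 as well it was 0.17. *Cxcr6* alone was at 826 CPM against 407 over the other kidney cells. With it, the 8 tissue residency genes summed to 1290 against 931 CPM, though their median log2 ratio was -0.25. Of these, the integrins *Itgae* (CD103) and *Itga1* (CD49a) were at 4.70 and 8.81 CPM, against 5.88 and 10.4 in those cells and 13.7 and 1.26 in 28W spleen cluster 2, and *Cd69*, which keeps cells in tissue, was at 68.1 against 133 CPM over the other kidney cells.

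Inhibitory receptors stood at middle to high levels. *Pdcd1* (chromosome 1, 94038305 to 94052553) was at 151 CPM (140 to 162), below cluster 6 at 229 and with limits that overlapped those of cluster 3 at 159. *Tigit* was at 104 CPM, *Lag3* at 66.4, *Cd160* at 65.6 and *Entpd1*, an ectoenzyme that degrades ATP, at 50.3. *Ctla4* was at 17.4 against 49.3 CPM over the other kidney cells and 213 in cluster 8. *Havcr2* (TIM-3), common on exhausted cells, was at 7.63 CPM (5.43 to 10.4). Of 12 listed receptors 11 were found and 8 passed the filter, with a median log2 ratio of 0.33. None was 2-fold higher and 1, *Ctla4*, was lower, beside 0.443% and 6.71% of all genes. That call was lost without clusters 7, 8 and 12, at -0.76. The NK receptor *Klrg1*, borne by terminal effector cells, was at 21.5 CPM (17.7 to 26.0), second to cluster 11 at 26.9, where limits overlapped, and 2.58-fold its level over the other kidney cells.

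Transcription factors of effector cells were not higher. Of 19 such genes, 18 passed the filter, none was 2-fold higher than in the other kidney cells and 5 were lower (*Nr4a1*, *Nr4a2*, *Nr4a3*, *Bhlhe40* and *Irf8*), beside 6.71% of all genes. Without clusters 7, 8 and 12 none of the 5 lower calls held, and the median went from -0.51 to -0.023. *Tbx21* (T-bet) was at 98.1 CPM with limits that overlapped those of cluster 3 at 103. *Id2* was at 626 CPM, below 728 in cluster 3 and 690 in cluster 6. *Tox*, which shapes chronically stimulated cells, was at 84.4 CPM against 115 in cluster 3. All 15 interferon-stimulated genes passed the filter, with a median of -0.04. Of them 1 (*Oasl2*) was 2-fold lower, beside 6.71% of all genes, and *Isg15* was at 273 CPM against 908 in cluster 6.

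S100, annexin and galectin genes and the actin cytoskeleton formed another high block. Of 14 genes of the former list, 13 had at least 10 CPM in cluster 1, 6 of those were highest there and 12 were among the 3 highest clusters. Of all 6828 genes at that level, 6.06% were highest and 31.5% among the 3 highest. *S100a6* was at 2871 CPM against 2056 in cluster 6. *Lgals1*, a lectin made by activated T cells, was at 2218 CPM, second to 2843 in cluster 11 and 1.99-fold its level in cluster 3. *Anxa1* was the exception at 2.54 CPM. The 18 actin genes were a list chosen after these levels were seen. In cluster 1, 8 were highest and 17 among the 3 highest, beside the same shares of all genes. Their median log2 ratio was 0.67. *Actb* (beta actin) was at 18184 CPM against 18630 in cluster 11 and 3519 to 13117 elsewhere. *Arpc5*, a subunit of the complex that branches actin, was at 737 against 671 CPM in cluster 11.

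T cell receptor signalling genes all passed the filter, 17 of 17, with a median log2 ratio of 0.42 and none past 2-fold. That median was 0.17 without clusters 2, 7, 8, 11 and 12. Over single clusters it was -0.010 for cluster 3, -0.008 for cluster 6 and 0.17 for cluster 4. *Thy1*, *Ptprcap*, *Lat*, *Zap70*, *Cd5* and *Cd6* were highest in cluster 1, beside 6.06% of 6828 genes with at least 10 CPM there. Of 15 glycolysis genes 13 passed the filter, with a median of 0.32 and none past 2-fold, with *Gapdh* at 2556 CPM, second to 3330 in cluster 11. Costimulatory receptors (median 0.33), cytokine receptors (-0.14), survival and death genes (0.06) and heat shock genes (-0.27) held no gene that was 2-fold higher. Nor did major histocompatibility complex (MHC) class I genes (0.16) or adhesion and egress genes (0.09), whose medians turned to -0.024 and -0.11 without clusters 2, 7, 8, 11 and 12. The NK receptor median of 0.12 turned to -0.012 in the same comparison. Of 10 NK receptors 1 was 2-fold higher, *Klrg1*, and 2 were lower, *Fcer1g* and *Tyrobp*, beside 0.443% and 6.71% of all genes. Both lower calls were lost without clusters 7, 8 and 12, at -0.98 and -0.23.

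**Figure D3:**
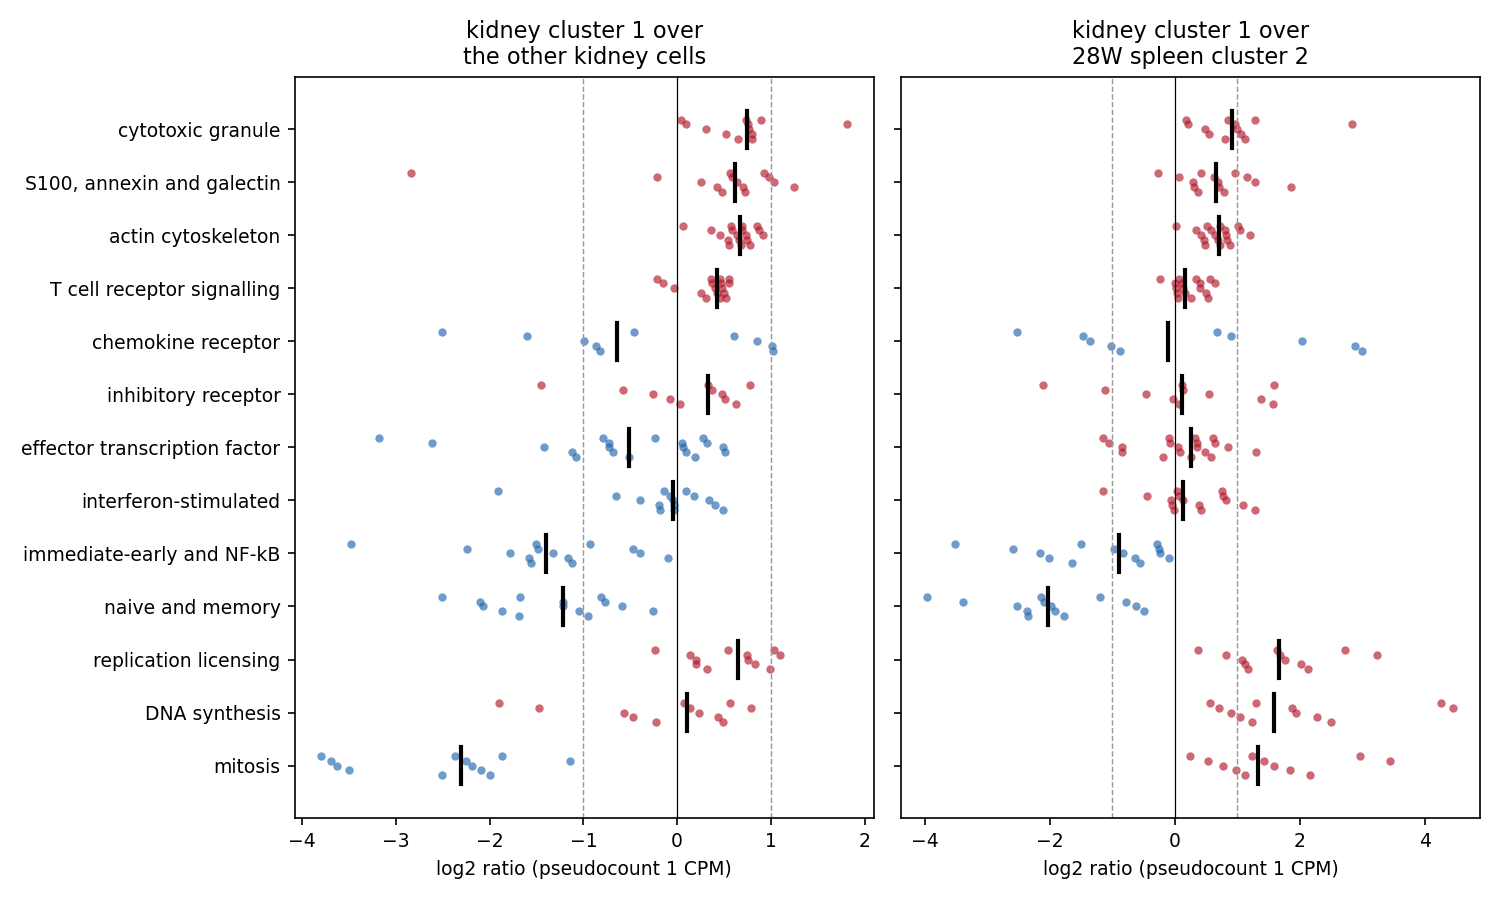
Log2 ratio of each listed gene in kidney cluster 1 over the other kidney cells (left) and over 28W spleen cluster 2 (right), 1 dot a gene and 1 row a list, with the list's median as a black bar and dashed lines at 2-fold. Granule genes lie right of 0 in both panels (medians 0.74 and 0.91), naive and memory genes left (-1.22 and -2.03), and mitosis genes change side, from a median of -2.31 to 1.33.

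Cluster 1 also held transcripts of DNA replication. The lists used here, replication licensing, DNA synthesis and mitosis, with 12 genes each, were chosen after these levels were seen. In the cell cycle the MCM helicase is loaded before DNA synthesis and unwinds DNA during it, and the mitosis genes peak later. *Mcm2* was at 63.8 CPM (57.1 to 71.1) in cluster 1, second to cluster 11 at 94.0, while the next, cluster 10, was at 22.0. *Mcm3* was at 99.0 CPM (90.6 to 108) against 172 in cluster 11 and 34.7 in the next. *Mcm5* was at 89.5 CPM against 186 and 43.3 in the same order. Of the 12 licensing genes, 10 with at least 10 CPM were among the 3 highest clusters, beside 31.5% of 6828 genes at that level. The median log2 ratio of the licensing list was 1.41 over cluster 3 and 1.45 over cluster 4. Of the 11 that passed the filter, 7, 9 and 9 were at least 2-fold higher than in clusters 3, 4 and 6, beside 1.05%, 1.71% and 1.93% of all genes.

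Mitosis genes were far below the cycling cluster. *Mki67*, a proliferation marker, was at 22.9 CPM in cluster 1 against 484 in cluster 11, *Top2a* at 23.7 against 566 and *Ccna2* (cyclin A) at 5.09 against 446. *Cenpf* was at 2.54 CPM, close to 3.22 in cluster 3. The level in cluster 1 was 0.679 of that in cluster 11 for *Mcm2* and 0.0473 of it for *Mki67*. Over the other kidney cells, which include cluster 11, the mitosis median was -2.31, and it turned to 1.16 without clusters 2, 7, 8, 11 and 12. *Birc5* and *Ccnb2*, at 28.0 and 26.0 CPM, stood above the 0.517 to 1.74 CPM of clusters 3, 4 and 6. *Pclaf*, a partner of the replication clamp, was at 74.2 CPM (66.9 to 82.0) against 1199 in cluster 11, 5.37 in cluster 3 and 1.03 in cluster 6. Cells in cycle that the clustering placed in cluster 1 and a like low level in all its cells cannot be told apart from cluster means.

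**Figure D4:**
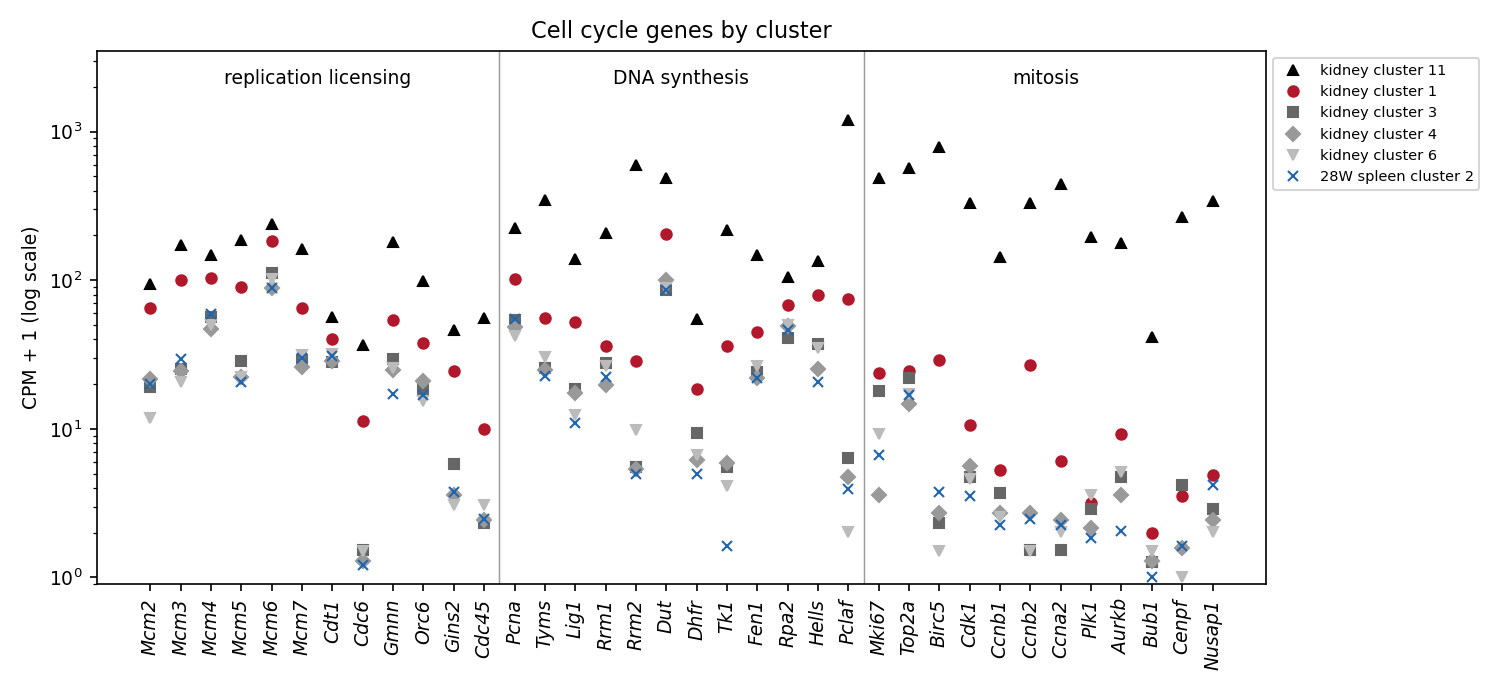
CPM + 1 on a log axis for the genes of replication licensing, DNA synthesis and mitosis, 1 symbol a cluster. Red circles (kidney cluster 1) lie under black triangles (cluster 11) for the MCM genes, at 63.8 against 94.0 CPM for *Mcm2*, and far below them for mitosis genes, at 22.9 against 484 CPM for *Mki67*.

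The 250 bases before the starts of *Mcm5* and *Mcm6* are shown. Of 9 licensing genes matched to the promoter table, these were the 2 that held the letters marked below. Both genes were higher in cluster 1 than in clusters 3, 4 and 6, as were other licensing genes such as *Mcm2* and *Mcm3*. Sequences are from RefSeq, build GRCm38.p6, chr8:75109259-75109508 on the plus strand and chr1:128359706-128359955 on the minus strand, written 5′ to 3′, and both lie outside the annotated genes. Capitals mark TTTCGCGC or TTTGGCGC on either strand, the letters bound by E2F factors, which drive genes of DNA replication. In *Mcm5* a match on each strand overlaps the other, and *Mcm6* has 3 matches of which 2 overlap. Both windows end upstream of the annotated gene starts.
Mcm5: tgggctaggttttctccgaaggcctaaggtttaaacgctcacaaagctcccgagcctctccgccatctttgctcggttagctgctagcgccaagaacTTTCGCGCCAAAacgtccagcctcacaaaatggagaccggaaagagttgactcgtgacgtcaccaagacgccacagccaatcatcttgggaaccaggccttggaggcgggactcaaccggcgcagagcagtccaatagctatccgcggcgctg
Mcm6: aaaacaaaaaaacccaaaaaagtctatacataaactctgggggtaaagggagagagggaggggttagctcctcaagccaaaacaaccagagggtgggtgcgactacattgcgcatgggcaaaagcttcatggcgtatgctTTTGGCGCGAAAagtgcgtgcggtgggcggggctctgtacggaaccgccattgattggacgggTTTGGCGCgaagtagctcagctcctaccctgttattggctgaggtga

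These letters occur in 0.655% of the 32817 promoter windows. Of the 12 licensing genes 9 matched the promoter table, with 10 windows, and 2 of the 9, *Mcm5* and *Mcm6*, held them in 1 window each.

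Likeness was measured across genes as Pearson's r of log2(CPM + 1) over 2656 genes with at least 50 CPM in the kidney library, V segments left out. It is a description across genes of 1 library, with no test. The clusters most like cluster 1 were cluster 4 (r = 0.974), cluster 6 (0.959) and cluster 3 (0.958), then cluster 9 (0.946), cluster 5 (0.937) and cluster 11 (0.895). Against cluster 4, 122 of 7138 genes (1.71%) were at least 2-fold higher in cluster 1 and 71 (0.995%) lower. *Gzmb* was 13.8-fold higher than in cluster 4, *Gzma* 4.62-fold and *Ccr2* 3.14-fold, and 6 of 12 naive and memory genes past the filter were lower. Against cluster 6, 141 of 7311 genes (1.93%) were higher and 143 (1.96%) lower. *Gzmb* was 2.47-fold higher than in cluster 6, no naive and memory gene was at least 2-fold lower, and 11 of 15 interferon-stimulated genes were. Against cluster 3, 79 of 7547 genes (1.05%) were higher and 345 (4.57%) lower, around a median of -0.18 over all genes. *Gzmb* was 2.66-fold higher than in cluster 3, while *Cxcr6* (0.959-fold), *Prf1* (0.912-fold) and *Tbx21* (0.949-fold) stood close to even.

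The comparison with 28W spleen cluster 2 set the cluster beside the main cytotoxic cluster of spleen at the same age. That cluster held 1027 cells and 4745397 UMIs. The authors scaled each library on its own, so levels here rest on rescaling to each cluster's UMIs, and organ and tissue digestion cannot be told apart. Of 7329 genes, 209 (2.85%) were at least 2-fold higher in kidney cluster 1 and 268 (3.66%) lower, around a median log2 ratio of 0.016. Ribosomal protein genes took 23.9% of UMIs in kidney cluster 1 and 31.1% in the spleen cluster, and leaving them, mitochondrial and T cell receptor genes out of the total gave 196 and 463.

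*Gzmb* was at 696 CPM in kidney cluster 1 against 96.3 (87.7 to 106) in 28W spleen cluster 2, a 7.23-fold difference. No 28W spleen cluster was higher than that 96.3 CPM. In 12W spleen cluster 2, which differs in organ and age, it was at 24.5 CPM. Against that cluster, 316 of 7500 genes (4.21%) were at least 2-fold higher and 374 (4.99%) lower. *Gzmk* was 2.43-fold higher than in the 28W spleen cluster, at 873 against 360 CPM, *Fasl* 2.20-fold and *Serpinb9* 2.11-fold. These were the 4 granule genes past 2-fold, of 12, beside 2.85% of all genes. None was lower, and the median log2 ratio was 0.91. *Prf1* was 1.41-fold higher, at 126 against 89.6 CPM (81.2 to 98.5). *Ccl5* was lower than in the spleen cluster, at 10631 against 12040 CPM, beyond counting error, and 12W spleen cluster 2 had 8055.

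The 10 highest ratios over 28W spleen cluster 2 were those of *Pclaf* (4.25), *Hspa1a* (3.78), *Fgl2* (3.48), *Cxcr6* (2.99), *Ccr2* (2.88), *Gzmb* (2.84), *Stmn1* (2.65), *Lig1* (2.27), *Mcm5* (2.13) and *Hspa1b* (2.12). *Cxcr6* was at 826 against 103 CPM (93.9 to 112), and *Ccr2* at 238 against 31.4 (26.6 to 36.9). *Fgl2*, which encodes a secreted fibrinogen-like protein, was at 154 against 12.9 CPM. These 3 genes were shared with kidney cluster 3, at 861, 221 and 190 CPM. *Hspa1a* and *Hspa1b*, heat shock genes that handling can induce, were at 515 and 200 CPM in cluster 1. Both were at 794 and 416 in kidney cluster 3 and at 36.7 and 45.3 in 28W spleen cluster 2, and reads of these near-identical genes may be split between them. The part of digestion in these values was not tested.

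Replication genes stood above the spleen cluster too. Of 12 licensing genes 11 passed the filter and 9 were at least 2-fold higher, with a median log2 ratio of 1.66, and 9 of 12 DNA synthesis genes were, beside 2.85% of all genes. Both lists were chosen after the levels were seen. *Pclaf* was at 74.2 against 2.95 CPM (1.61 to 4.95) and *Stmn1*, a microtubule protein of dividing cells, at 166 against 25.5. *Mcm5* was at 89.5 against 19.6 CPM (15.8 to 24.0). Against the whole 28W spleen library the licensing median was 0.63 and that of mitosis genes turned from 1.33 to -0.98.

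The lowest genes were *Klf2* (-3.96), *Dtx1* (-3.80), *Il7r* (-3.38), *Nsg2* (-2.75), *Rflnb* (-2.62), *Fos* (-2.60), *Ripor2* (-2.54), *Ccr7* (-2.53) and *Klf3* (-2.37). *Klf2* was at 87.7 against 1377 CPM (1344 to 1411) in 28W spleen cluster 2, a 15.7-fold difference, and at 1201 in 12W spleen cluster 2. *Il7r* was at 42.7 against 454 CPM and at 685 in 12W spleen cluster 2. *Dtx1*, a regulator of Notch signals, was at 9.79 against 149 CPM, and *Ccr7*, which guides cells to lymph nodes, at 15.3 against 92.9. Of 14 naive and memory genes 11 were at least 2-fold lower and none higher, beside 3.66% of all genes lower, with a median of -2.03. *S1pr1*, the receptor that lets T cells leave tissue, was at 32.3 against 113 CPM (103 to 122). Kidney clusters 3, 4, 5, 6 and 9, at 92.6 to 610 CPM, were also below this spleen cluster for *Klf2*.

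Other groups were mixed against 28W spleen cluster 2. Among inhibitory receptors *Pdcd1* was 2.63-fold higher, at 151 against 57.3 CPM (50.7 to 64.6), and *Entpd1* 3.14-fold, at 50.3 against 16.0. *Lag3* was lower, at 66.4 against 145 CPM, and *Ctla4* at 17.4 against 78.2, so 2 of 7 genes past the filter were 2-fold higher and 2 lower, where 2.85% and 3.66% of all genes were. Their median of 0.11 was -0.027 when ribosomal protein, mitochondrial and T cell receptor genes left the total. NK cell receptors also split, with *Klrc1* (NKG2A) 2.88-fold higher at 214 CPM and *Ncr1*, *Klrb1c*, *Tyrobp* and *Fcer1g* lower. *Id2* was at 626 against 254 CPM, the only effector transcription factor past 2-fold higher. *S100a4* was at 1060 against 292 CPM (277 to 308), and 3 of 13 S100, annexin and galectin genes past the filter were 2-fold higher, beside the same 2.85%. Of the immediate-early and NF-kB genes, 6 of 14 were 2-fold lower, beside the same 3.66%, with *Tnfaip3* at 32.9 against 150 CPM. In 12W spleen cluster 2, *Tnfaip3* was at 62.4 and *Fos* at 91.6 CPM, nearer to the kidney cluster than the 28W spleen cluster was.

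The T cell receptor segments in use were read from UMIs of V genes. Cells of a clone share a receptor, and UMIs of a cell are not independent, so the limits are too narrow for a statement on clones. Near-identical segments, such as those of the Trbv13 group, may share reads. Cluster 1 held 11565 Trbv UMIs. *Trbv13-1* made up 27.8% (26.9 to 28.6), *Trbv13-2* 22.7% (22.0 to 23.5) and *Trbv20* 11.5% (10.9 to 12.1). *Trbv20* was at 7.98% over the other kidney cells and at most 9.43% in any of the 8 other kidney clusters with at least 1000 Trbv UMIs. *Trbv1* was at 4.27%, below each of those 8 clusters at 5.36% to 10.6%, and at 11.5% in 28W spleen cluster 2. *Trbv29* was the only V segment with at least 50 CPM and at least 1.5 times the next highest kidney cluster, at 56.2 CPM (49.9 to 63.1) against 33.3 in cluster 3.

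**Figure D5:**
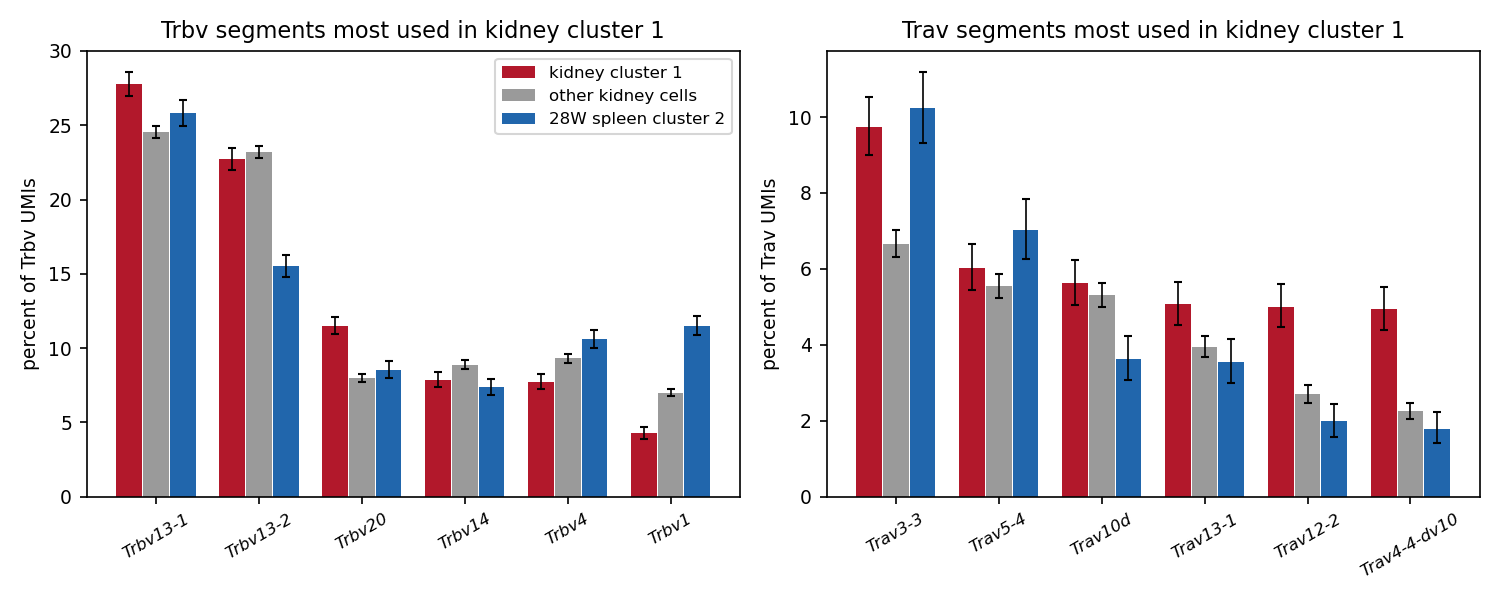
Share of Trbv UMIs (left) and Trav UMIs (right) taken by the 6 segments most used in kidney cluster 1, in cluster 1 (red), the other kidney cells (grey) and 28W spleen cluster 2 (blue), with exact 95% binomial limits. *Trbv20*, at 11.5%, and *Trav12-2* and *Trav4-4-dv10*, at 5.0% and 4.94%, are above both other bars, and *Trbv1*, at 4.27%, is below them.

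The effective number of segments (the inverse Simpson index, which equals the count of segments if all were used alike) was 6.23 for Trbv in cluster 1, within the 5.53 of cluster 11 to 8.18 of cluster 8. It was 7.44 in 28W spleen cluster 2 and 9.19 in 12W spleen cluster 2. For Trav it was 26.5 in cluster 1, below all 7 other kidney clusters with at least 1000 Trav UMIs, at 28.3 to 35.1, and below 29.5 and 34.8 in the spleen clusters. *Trav3-3* was the most used, at 9.75% (9.0 to 10.5) against 6.66% over the other kidney cells and 10.2% in 28W spleen cluster 2. *Trav4-4-dv10* was at 4.94% (4.39 to 5.52) against 2.26% and 1.79% in the same order, and *Trav12-2* at 5.0% against 2.70% and 1.98%. The paired receptor sequences were not analysed here, so clone sizes were not measured.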

How the data were processed

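Sorted cells were profiled by 10x Genomics single-cell RNA sequencing. The authors deposited, per library, the cluster of each barcode and, per gene and cluster, a mean count, a log2 fold change and an adjusted p. The last 2 hold the authors' own comparisons and were not used. The submitters' processing notes name Cell Ranger 2.1.1, R 3.6.1 and GRCm38, without roles. Cell filters and doublet removal are not given in the sources used here, and doublets could not be called from cluster means. Groups came from sample titles, although the age given for 28W spleen is 12 weeks.

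Each column of the deposited mean counts held whole multiples of its lowest value (100% within 0.001), which gave UMIs and CPM. No test was run, since each group was 1 library. Ratios with a pseudocount of 1 CPM used genes with at least 10 CPM on either side, and named genes at least 50. Genes named were the 10 highest and 10 lowest per comparison, those at least 1.5 times the next kidney cluster, the 3 most used Trbv segments and listed genes. The replication licensing, DNA synthesis, mitosis and actin lists were added after seeing the levels. Members and lists were chosen with earlier results of these data known, and some listed genes are ones the study names from these libraries. Some genes that met the rule are not reported here. Genes in several lists count under each. Of 18992 gene identifiers, 18974 were in GENCODE M21 (GRCm38), which gave gene coordinates. The calling rule was also run on simulated counts, which checks the calculation and not the calls made here. Python 3.11.15, pandas 2.3.3 and scipy 1.17.1 were used.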

Additional observations from a re-analysis of the deposited data

How the results depend on the processing

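The naive and memory list stayed lower and the cytotoxic granule list higher in both comparisons under each alternative run. Against the other kidney cells, genes 2-fold higher and lower numbered 34 and 515, and 7 and 341 with a pseudocount of 10 CPM, 52 and 1672 with no filter on low values, 18 and 263 without kidney clusters 7, 8 and 12, and 103 and 108 without clusters 2, 7, 8, 11 and 12 (an alternative chosen after seeing the data). The unweighted mean of the other 11 clusters gave 56 higher. Against 28W spleen cluster 2 they numbered 209 and 268, and 95 and 97 with a pseudocount of 10 CPM, 462 and 564 with no filter, and 463 lower with ribosomal protein, mitochondrial and T cell receptor genes out of the total. The granule median over the other kidney cells was 0.74, and 0.54 without clusters 7, 8 and 12 and 0.50 without clusters 2, 7, 8, 11 and 12. Over 28W spleen cluster 2 it was 0.91, 0.75 with those genes out of the total and 1.60 against the whole 28W spleen library. The naive and memory median of -2.03 was -2.57 against that library. The inhibitory receptor median of 0.11 was -0.027 with those genes out of the total and 1.06 against that library. Cluster 1 was 12.6% of kidney cells, 15.4% without clusters 7, 8 and 12, and 17.1% of kidney UMIs. Of genes past 2-fold, 6.19% were higher than in the other kidney cells, and 48.8% without clusters 2, 7, 8, 11 and 12. Over 28W spleen cluster 2, 43.8% were higher, and 29.7% with those genes out. Alternatives were classed for the gene counts, the granule, inhibitory receptor and naive and memory medians, and the share of cluster 1. Medians of the other lists were not classed, and several changed sign, such as those of chemokine receptor, costimulatory receptor and mitosis genes. Of the 62 alternative values classed, 1 changed sign, 21 were classed as moved (counts of genes, over 1.5 times) and 40 as not moved. The last class does not mean a small change, since it holds the inhibitory receptor change from 0.11 to 1.06. The samples of a group share 1 set of tables. No paired analysis was therefore possible, and leaving out a sample could not be run. Depth limits genes under 10 CPM, and in clusters 2, 10 and 12, with 774398 to 1038369 UMIs, the limits are wide.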
